A study of Mus musculus with 6 samples.

Results

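The antibody variable (V) genes that were expressed in HM1 tumours of mice are described here. They are the 129 genes whose name starts with Ighv, Igkv or Iglv and whose level was 1 TPM or more in at least 1 of 6 tumour libraries, out of 346 such genes and of 57462 genes in all. TPM is a relative abundance corrected for gene length. HM1 is a mouse ovarian cancer cell line, and the tumours came from an early tumour model. In 3 tumours (shST3GAL3) the cancer cells carried a short hairpin RNA that knocks down ST3GAL3, an enzyme that adds sialic acid to glycans, and in 3 tumours (shControl) they carried a control hairpin and are labelled wild type. The sources used here give no host strain, age, tumour site or word on whether a line was 1 clone. The labels do not tie the 3 tumours of a group to 3 animals, and the spread behind each p-value may therefore be technical.

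A B cell builds its antibody heavy chain by joining 1 Ighv gene to D and J segments, and its light chain by joining 1 Igkv (kappa) or Iglv (lambda) gene to a J segment. The V gene encodes most of the antigen-binding domain. Each B cell clone keeps its own pair, and plasma cells, the antibody-secreting stage, hold very large amounts of these transcripts. V transcripts in a bulk tumour are therefore usually taken to come from B-lineage cells of the host, and a few V genes with most of the signal are what a few dominant clones would leave. The same picture can arise from different clones with the same V gene, since the joined sequence was not read here.

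A V gene is called in use in a tumour when it reached 1 TPM there, the same threshold that made a gene a member. Among short genes of the length of V genes, low values recurred at 0.54, 0.52 and 0.61 TPM in shST3GAL3 1, 2 and 3 and at 0.56 and 0.57 TPM in shControl 2 and 3. In shControl 1 no low value recurred often enough to give a step. The threshold thus lay only 1.64 to 1.92 such steps above 0, and a gene near 1 TPM rests on very little signal. Depth is unknown, since TPM keeps no read number. Between 13930 and 14762 genes per library reached 1 TPM. St3gal3 stood at 7.57 ± 0.838 TPM in shST3GAL3 and 13.9 ± 0.127 TPM in shControl tumours (SD, n = 3 each), with no overlap. The keratin genes Krt8, Krt18 and Krt19 of epithelial cells were abundant in all 6 tumours, with Krt8 at 728 to 1227 TPM in shST3GAL3 and 1156 to 1295 TPM in shControl tumours. Epcam, another epithelial marker, was at or near 0 (at most 1.17 TPM).

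The V genes that led the tumours are shown by sequence, since the results turn on which gene led and on how far it can be told from its relatives. The sequences are the coding part of the V exon, up to its first 300 bases, in the transcripts of GENCODE M21, on the build GRCm38, another build than the GRCm39 that the submitters' processing notes name. They are germline reference sequences and not the rearranged sequences of the tumours. Ighv14-3 (chr12:114059850-114060149, minus strand) and Ighv14-2 (chr12:113994474-113994773, minus strand) led the heavy chain locus in shST3GAL3 3 and shControl 2. They differ at 13 of 305 positions of that exon, all shown in capitals.
Ighv14-3: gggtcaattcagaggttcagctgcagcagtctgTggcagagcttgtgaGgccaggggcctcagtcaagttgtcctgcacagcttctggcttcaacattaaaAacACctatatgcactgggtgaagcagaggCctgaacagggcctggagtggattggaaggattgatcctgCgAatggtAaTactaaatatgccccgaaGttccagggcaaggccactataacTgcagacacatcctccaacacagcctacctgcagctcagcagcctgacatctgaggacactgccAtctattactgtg
Ighv14-2: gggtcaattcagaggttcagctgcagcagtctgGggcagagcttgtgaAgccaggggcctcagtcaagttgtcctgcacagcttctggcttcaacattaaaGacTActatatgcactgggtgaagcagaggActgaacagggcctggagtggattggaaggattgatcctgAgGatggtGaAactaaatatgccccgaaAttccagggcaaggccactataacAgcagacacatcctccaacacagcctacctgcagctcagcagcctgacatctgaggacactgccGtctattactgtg

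Ighv1-82 (chr12:115952543-115952842, minus strand) led the heavy chain locus in 3 tumours, though in shControl 3 by only 1.36 TPM against 1.20 TPM for Ighv1-58. Ighv1-80 (chr12:115912349-115912648, minus strand) was high beside Ighv1-82 in shST3GAL3 1. They differ at 12 of 305 positions, all shown in capitals.
Ighv1-82: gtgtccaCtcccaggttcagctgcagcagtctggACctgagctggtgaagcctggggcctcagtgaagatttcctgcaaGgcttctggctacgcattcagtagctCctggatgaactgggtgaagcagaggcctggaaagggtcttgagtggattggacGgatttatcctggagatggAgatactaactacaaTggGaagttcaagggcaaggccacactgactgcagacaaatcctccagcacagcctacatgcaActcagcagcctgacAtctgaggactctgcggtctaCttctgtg
Ighv1-80: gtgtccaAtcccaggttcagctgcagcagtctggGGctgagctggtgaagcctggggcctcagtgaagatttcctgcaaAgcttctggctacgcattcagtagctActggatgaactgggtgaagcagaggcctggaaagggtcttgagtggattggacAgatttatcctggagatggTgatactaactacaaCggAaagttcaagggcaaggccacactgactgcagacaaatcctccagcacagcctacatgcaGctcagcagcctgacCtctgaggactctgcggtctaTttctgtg

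Ighv1-72 (chr12:115757989-115758288, minus strand) led in shST3GAL3 1. Its capitals mark the 3 positions that differ from Ighv1-62-3, its closest relative. Ighv1-62-3 stood at only 2.85 TPM in shST3GAL3 1, where Ighv1-72 stood at 1332.61 TPM; how reads shared by the pair were divided is not known.
Ighv1-72: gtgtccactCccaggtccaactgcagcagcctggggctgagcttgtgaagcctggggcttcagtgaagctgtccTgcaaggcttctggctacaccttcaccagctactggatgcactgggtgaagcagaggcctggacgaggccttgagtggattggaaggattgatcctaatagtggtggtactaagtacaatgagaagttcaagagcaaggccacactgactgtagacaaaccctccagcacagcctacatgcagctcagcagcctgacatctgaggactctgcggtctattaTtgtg

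Igkv15-103 (chr6:68437628-68437925, plus strand), Igkv13-85 (chr6:68930269-68930566, minus strand) and Igkv3-7 (chr6:70607727-70608026, plus strand) led the kappa locus in shST3GAL3 1, in shST3GAL3 2 with shControl 1, and in shControl 2. Their capitals mark the last in-frame cysteine codon, behind which the third hypervariable loop begins. Igkv15-103 and Igkv13-85 were 74.2% identical over the V exon.
Igkv15-103: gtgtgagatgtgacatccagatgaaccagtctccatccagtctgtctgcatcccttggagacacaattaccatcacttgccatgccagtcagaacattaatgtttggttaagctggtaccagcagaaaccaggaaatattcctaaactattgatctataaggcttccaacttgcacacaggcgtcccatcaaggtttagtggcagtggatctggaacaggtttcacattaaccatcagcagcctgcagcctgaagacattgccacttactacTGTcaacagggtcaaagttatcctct
Igkv13-85: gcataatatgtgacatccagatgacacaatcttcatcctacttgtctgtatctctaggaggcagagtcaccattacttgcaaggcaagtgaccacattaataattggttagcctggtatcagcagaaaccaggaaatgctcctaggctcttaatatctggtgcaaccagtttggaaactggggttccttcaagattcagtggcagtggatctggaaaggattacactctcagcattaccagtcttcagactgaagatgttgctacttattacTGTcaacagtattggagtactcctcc
Igkv3-7: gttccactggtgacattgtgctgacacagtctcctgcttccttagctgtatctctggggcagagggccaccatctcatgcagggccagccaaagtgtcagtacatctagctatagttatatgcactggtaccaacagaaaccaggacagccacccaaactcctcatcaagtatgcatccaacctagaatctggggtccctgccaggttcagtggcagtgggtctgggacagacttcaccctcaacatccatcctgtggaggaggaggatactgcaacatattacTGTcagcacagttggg

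V genes with an intact reading frame made up nearly all of the expressed set. Of 216 genes annotated as functional V genes in GENCODE M21, 126 were members (58.3%), against 3 of 130 V pseudogenes (2.3%). By locus the members were 59 of 113 functional Ighv genes on chromosome 12, 64 of 100 functional Igkv genes on chromosome 6 and all 3 Iglv genes on chromosome 16. The pseudogene with the highest level was Igkv3-11, at 1.74, 0 and 0 TPM in shST3GAL3 1, 2 and 3 and 0, 2.87 and 0 TPM in shControl 1, 2 and 3. The other member pseudogenes were Ighv1-14, with a highest value of 2.21 TPM, and Ighv1-62, with 1.09 TPM. Just inside the threshold stood Ighv8-5, Igkv3-1 (both 1.01 TPM at most) and Ighv3-4 (1.03 TPM), and just outside it Ighv5-15 (0.99 TPM), Ighv1-42 (0.97 TPM) and Igkv4-58 (0.96 TPM). The highest level of a member had a median of 7.46 TPM. It was 100 TPM or more for 14 members, each of them highest in shST3GAL3 1, and under 2 TPM for 33.

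The shST3GAL3 tumours held more V transcript than the shControl tumours, and most of the difference came from 1 tumour. The members summed to 10325, 581 and 140.3 TPM in shST3GAL3 1, 2 and 3, against 41.2, 134.1 and 18.5 TPM in shControl 1, 2 and 3. These sums are 1.033% of all transcripts in shST3GAL3 1 and 0.0134% or less in each shControl tumour. The lowest shST3GAL3 tumour stood just above the highest shControl tumour, so that the groups did not overlap, but that gap was small against the range within each group. The mean of log2(sum + 1) was higher by 4.30 in shST3GAL3 tumours, and by 2.57 without shST3GAL3 1. No test was made of this sum, since the members were chosen by their level in these tumours. In bulk tissue, more B-lineage cells and more V transcript per cell cannot be told apart.

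Heavy chain V genes were present in amounts close to those of the heavy constant genes, and kappa V genes in amounts close to Igkc in 5 of the 6 tumours, while lambda V genes lay far above the lambda constant genes in several tumours. All Ighv genes of the files, members or not, summed to 4759, 226 and 61.4 TPM in shST3GAL3 1, 2 and 3 and to 17.0, 57.2 and 5.74 TPM in shControl 1, 2 and 3. That was between 1.12 and 1.99 times the summed heavy constant genes in all 6 tumours. All Igkv genes likewise summed to 5390, 341 and 75.7 TPM in shST3GAL3 1, 2 and 3 and to 22.1, 77.7 and 13.0 TPM in shControl 1, 2 and 3. They stood at 1.43, 1.18 and 2.08 times the kappa constant gene Igkc in shST3GAL3 1, 2 and 3, and at 1.60, 1.92 and 5.85 times in shControl 1, 2 and 3. Only shControl 3, where Igkc was 2.22 TPM, lay far from the others. The Iglv genes summed to 187, 17.1 and 3.14 TPM in shST3GAL3 1, 2 and 3 and to 2.71, 0.28 and 0.44 TPM in shControl 1, 2 and 3. The lambda constant genes summed to 5.98, 2.05 and 0.95 TPM in shST3GAL3 tumours and to 0.27, 1.86 and 0.17 TPM in shControl tumours, and shControl 2 was the only tumour in which they exceeded the Iglv genes. The heavy constant gene with the highest level was Ighg1, of IgG1, in all 3 shST3GAL3 tumours and shControl 2, Ighg2b in shControl 1 and Ighm, of IgM, in shControl 3.

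Some transcripts of plasma cells, among them Jchain, Mzb1 and Derl3, were highest in shST3GAL3 1 and next highest in shST3GAL3 2, the tumours with the most V transcript, while others of the same list were not. Jchain, which links antibody units, stood at 84.8, 6.50 and 0.91 TPM in shST3GAL3 1, 2 and 3 and at 0.77, 1.48 and 0.10 TPM in shControl 1, 2 and 3. Mzb1, a chaperone of antibody assembly, stood at 53.7, 7.08 and 0.18 TPM in shST3GAL3 and 0.56, 0.21 and 0.24 TPM in shControl tumours. In shST3GAL3 3 both were near the levels of the shControl tumours, although its V sum was the third highest. Pou2af1, a B-lineage coactivator, stood at 6.18, 1.01 and 0.94 TPM in shST3GAL3 and 1.19, 1.13 and 1.33 TPM in shControl tumours, and Fkbp11 was lowest in shST3GAL3 1. Of the B cell surface genes, Ms4a1 (CD20) was at most 0.32 TPM and Cd79a at most 2.64 TPM, each highest in shST3GAL3 1. Cd37, a surface gene of B cells and other leukocytes, stood at 22.7, 8.95 and 7.16 TPM in shST3GAL3 and 6.52, 5.57 and 5.37 TPM in shControl tumours. Of the B cell precursor genes, Rag2, Igll1 and Vpreb2 were listed at 0 in all 6 tumours and Rag1 was at most 0.02 TPM. Vpreb1 stood at 1.54 TPM in shST3GAL3 3 and 1.44 TPM in shControl 2 and was listed at 0 in the other tumours, Vpreb3 was at most 0.87 TPM and Dntt at most 0.38 TPM. The 11 B cell genes summed to 52.1, 28.8 and 22.2 TPM in shST3GAL3 1, 2 and 3 and to 18.9, 17.4 and 20.1 TPM in shControl 1, 2 and 3, and 3 of them were higher in each shST3GAL3 tumour than in any shControl tumour. The 12 plasma cell genes summed to 593, 387 and 364 TPM in shST3GAL3 and 365, 361 and 332 TPM in shControl tumours, and 3 of them were so separated. Of the 14207 genes tested, 15.7% were. The 12 genes of B cell development and germinal centres summed to 33.2, 29.2 and 33.3 TPM in shST3GAL3 and 26.9, 28.1 and 29.2 TPM in shControl tumours, and 2 of them were so separated. Xbp1, Sdc1 and Fkbp11 of the plasma cell list were abundant in all 6 tumours (58.8 to 179 TPM), so its sum does not follow plasma cells alone.

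Markers of other cell types moved in the same order as the V genes across the shST3GAL3 tumours. The 10 fibroblast genes summed to 7395, 2273 and 1568 TPM in shST3GAL3 1, 2 and 3, against 1055, 841 and 1357 TPM in shControl 1, 2 and 3, and 9 of them were higher in each shST3GAL3 tumour than in any shControl tumour, against 15.7% of all genes tested. The 12 T cell genes summed to 208, 189 and 101 TPM in shST3GAL3 and 117, 82.1 and 91.0 TPM in shControl tumours, and 4 of them were so separated. The 8 macrophage genes summed to 2314, 1776 and 1302 TPM in shST3GAL3 and 1306, 1247 and 1096 TPM in shControl tumours, with 4 of them so separated. The 12 lymphoid follicle genes, which would mark lymph node tissue, summed to 85.3, 73.0 and 49.5 TPM in shST3GAL3 and 35.8, 37.5 and 44.4 TPM in shControl tumours, with 1 of them so separated. Cr2, of follicular dendritic cells, was at most 0.14 TPM and Fcer2a at most 0.09 TPM. Other members had values: Ccl21a, a lymph node chemokine, stood at 3.52, 28.2 and 16.1 TPM in shST3GAL3 and 2.44, 1.47 and 12.3 TPM in shControl tumours. Cxcl13, the B cell chemokine, stood at 3.14, 1.65 and 0.58 TPM in shST3GAL3 and 0.23, 0.88 and 0.44 TPM in shControl tumours. Glycam1, of lymph node vessels, stood at 4.47, 0.28 and 0 TPM in shST3GAL3 and 0.20, 0.31 and 0 TPM in shControl tumours. The 6 epithelial tumour genes ran the other way, at 1772, 2698 and 3210 TPM in shST3GAL3 and 3292, 3687 and 3206 TPM in shControl tumours. The part of these cell types in the V gene levels was not tested.

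**Figure D1:**
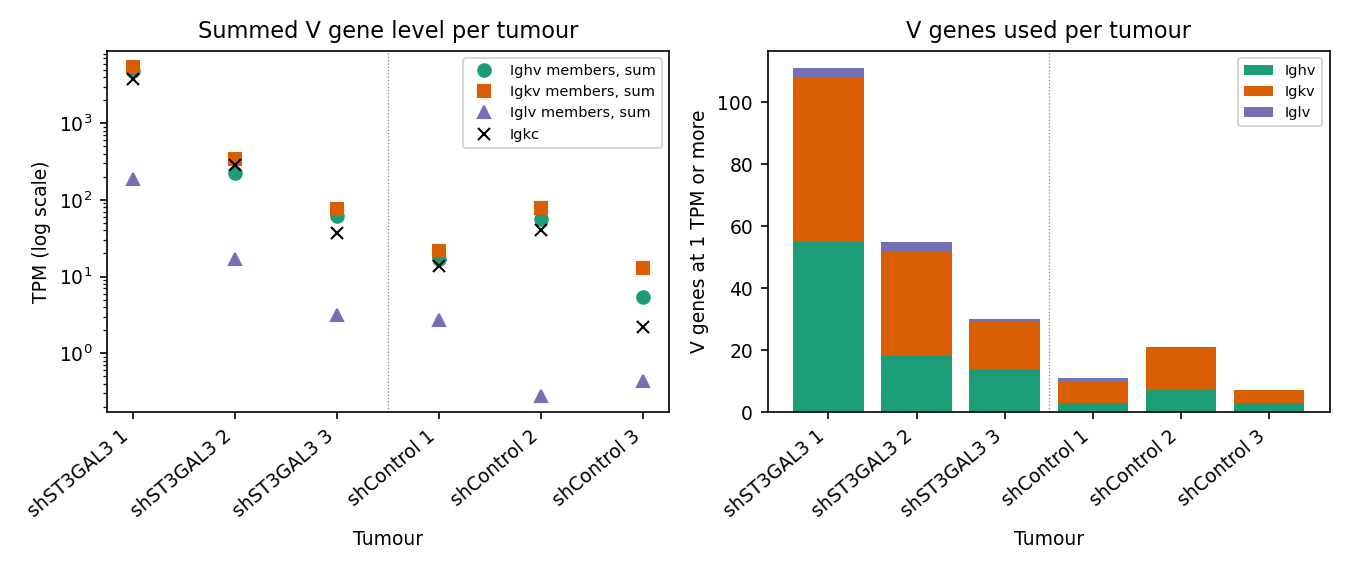
Left, summed TPM of the members of each locus and of Igkc in each of the 6 tumours, on a log scale. Right, number of V genes at 1 TPM or more in each tumour, stacked by locus. shST3GAL3 1 stands highest in both panels, and shControl 2 lies close to shST3GAL3 3.

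The number of V genes in use ran with the amount of V transcript. It was 111, 55 and 30 in shST3GAL3 1, 2 and 3 (mean 65.3 ± 41.5, SD, n = 3) and 11, 21 and 7 in shControl 1, 2 and 3 (mean 13.0 ± 7.21, SD, n = 3). The order of the tumours by genes in use was the order by summed V level. By locus, Ighv genes in use numbered 55, 18 and 14 in shST3GAL3 tumours and 3, 7 and 3 in shControl tumours. Igkv genes in use numbered 53, 34 and 15 in shST3GAL3 tumours and 7, 14 and 4 in shControl tumours. A fixed threshold finds more genes where the total is larger, so the tumours of similar total are the closest comparison. These were shST3GAL3 3, with 30 genes in use at a sum of 140.3 TPM, and shControl 2, with 21 genes at 134.1 TPM. When a gene had to hold at least 1% of the V level of its locus instead, the mean number of genes was 32.3 in shST3GAL3 and 20.7 in shControl tumours. This count still depends on the total. In shControl 1 and 3 every Ighv and Igkv member with any value above 0 met it (5 and 12 genes, and 6 and 11 genes).

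Within each tumour a few V genes held much of the signal. Shares are of the summed members of a locus. In the heavy chain locus the top gene held 28.0%, 27.5% and 14.8% of the Ighv TPM in shST3GAL3 1, 2 and 3, against 77.0%, 41.8% and 25.4% in shControl 1, 2 and 3. The groups overlapped, with shControl 3 below 2 of the shST3GAL3 tumours. In shControl 3, however, the Ighv members summed to only 5.36 TPM and the top gene stood at 1.36 TPM. Its share thus rests on very little signal. The top 5 Ighv genes held 83.8%, 69.8% and 61.6% in shST3GAL3 tumours and 100%, 90.5% and 91.6% in shControl tumours. In shControl 1 and 3 only 5 and 6 Ighv members had any value above 0, so that a high share of the top 5 genes follows from the low number. In the kappa locus the top gene held 42.5%, 18.8% and 22.9% in shST3GAL3 tumours and 23.4%, 61.3% and 40.6% in shControl tumours. The top gene of shControl 3 was Igkv12-89, at 5.17 TPM, a gene that varied far less than Igkc across the tumours (below). The top 5 Igkv genes held 77.7%, 50.5% and 74.1% in shST3GAL3 tumours and 73.1%, 80.6% and 80.7% in shControl tumours, again with overlap.

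The effective number of V genes (inverse Simpson index, the number of equally abundant genes that would give the same concentration) puts the same shares in 1 value. For Ighv it was 5.44, 7.42 and 10.5 in shST3GAL3 1, 2 and 3, against 1.63, 2.96 and 5.19 in shControl 1, 2 and 3. The groups did not overlap, but shControl 3 (5.19) stood close to shST3GAL3 1 (5.44). With only 5 and 6 Ighv members above 0 in shControl 1 and 3, the effective number could not exceed these counts there. For Igkv it was 4.44, 13.2 and 6.74 in shST3GAL3 tumours and 7.27, 2.56 and 4.49 in shControl tumours. shST3GAL3 1, with by far the most V transcript, thus had the lowest effective number of its group in both loci, and its kappa value lay below those of shControl 1 and 3. Between the tumours of similar total, shST3GAL3 3 was the more even, at 10.5 Ighv genes against 2.96 in shControl 2, and at 6.74 Igkv genes against 2.56.

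**Figure D2:**
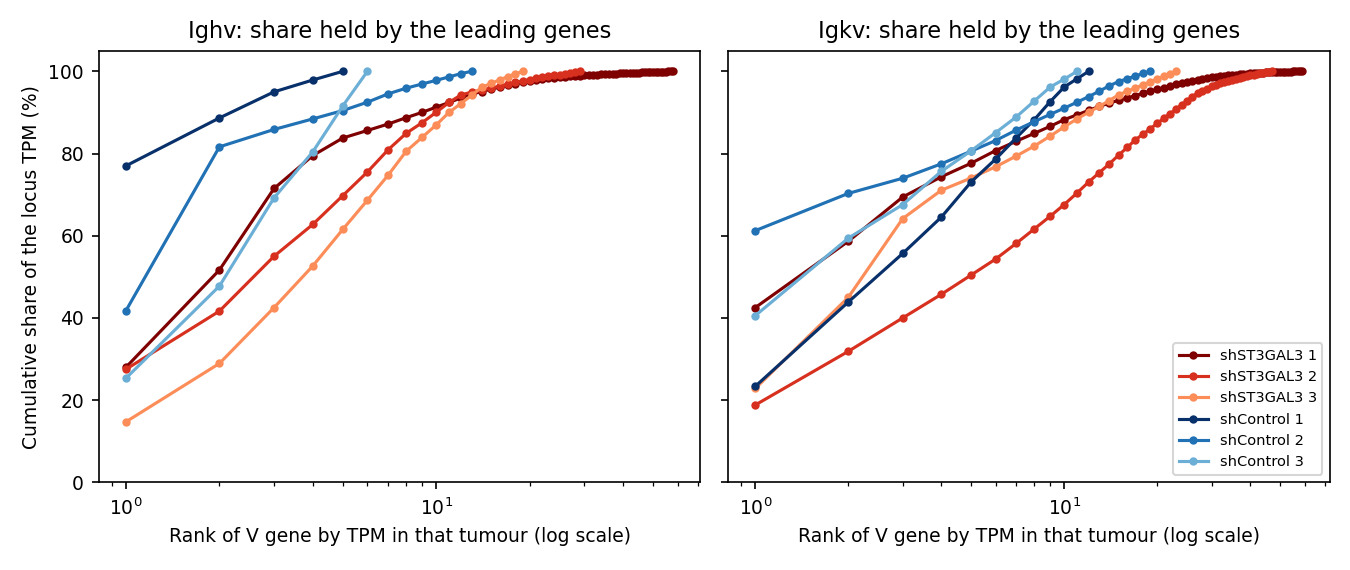
Cumulative share of the Ighv (left) and Igkv (right) TPM of each tumour held by its leading V genes, against the rank of the gene on a log scale. The top Ighv gene holds 14.8% in shST3GAL3 3 and 77.0% in shControl 1, and the top Igkv gene 18.8% in shST3GAL3 2 and 61.3% in shControl 2.

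Some leading genes were abundant in 1 tumour alone, while others led in several tumours. In shST3GAL3 1 Igkv15-103 stood at 2290.51 TPM, while it was 0.43 and 0 TPM in shST3GAL3 2 and 3 and 0, 0 and 0.49 TPM in shControl 1, 2 and 3. Ighv1-72, known from antibodies of C57BL/6 mice to the hapten nitrophenyl, stood at 1332.61, 1.07 and 1.31 TPM in shST3GAL3 tumours and was listed at 0 in all shControl tumours. Both were thus abundant in 1 tumour alone. Igkv12-38 showed the same pattern, with 868.51, 2.17 and 0 TPM in shST3GAL3 tumours and 0, 0 and 0.64 TPM in shControl tumours. Igkv19-93, chosen here after its values were seen, stood at 264.77 TPM in shST3GAL3 1 and was listed at 0 in the other 5 tumours.

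Other genes led in other tumours. Igkv13-85 stood at 3.90, 63.99 and 0 TPM in shST3GAL3 1, 2 and 3 and at 5.03, 0 and 0 TPM in shControl 1, 2 and 3. Igkv14-100 stood at 5.29, 44.31 and 1.83 TPM in shST3GAL3 tumours and at 0, 0.56 and 0 TPM in shControl tumours. Both were highest in shST3GAL3 2, with Ighv1-76 at 0.94, 31.65 and 0 TPM in shST3GAL3 and 0, 0.50 and 0 TPM in shControl tumours. Igkv1-110, with 1.48, 9.76 and 17.32 TPM, and Igkv8-27, with 26.96, 0 and 16.78 TPM, led the kappa locus of shST3GAL3 3, and both were listed at 0 in the shControl tumours. In shControl 2 Igkv3-7 stood at 47.6 TPM, against 1.52, 0.88 and 0.58 TPM in shST3GAL3 1, 2 and 3 and 0 TPM in shControl 1 and 3. It is the highest value of any V gene in a shControl tumour and held 61.3% of the kappa level there.

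Some heavy chain genes were in use in several tumours and in both groups, though none was high in more than 1 shControl tumour. Ighv1-82 stood at 1123.42, 61.7 and 3.75 TPM in shST3GAL3 1, 2 and 3 and at 13.1, 0.44 and 1.36 TPM in shControl 1, 2 and 3. Ighv14-3 stood at 381.08, 29.89 and 9.06 TPM in shST3GAL3 tumours and at 1.98, 22.32 and 0 TPM in shControl tumours. Each was in use in 5 of the 6 tumours, and in each the groups overlapped. Ighv14-2 stood at 30.73, 17.36 and 6.22 TPM in shST3GAL3 tumours and at 0, 23.44 and 0 TPM in shControl tumours. Ighv1-80, at 942.49, 15.72 and 1.87 TPM in shST3GAL3 and 1.08, 0 and 0 TPM in shControl tumours, was highest where its relative Ighv1-82 was highest. Ighv1-82 and Ighv1-80 differ at the 12 positions shown above and Ighv14-3 and Ighv14-2 at 13, and reads without such a position could have been divided between them. Over all members the closest other V gene had a median identity of 95.6%, and 75 of 129 had a relative of 95% or more. Ighv1-62-2 and Ighv1-71 have identical V exons and were both listed at 1.32 TPM in shST3GAL3 1, so their levels are uncertain.

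**Figure D3:**
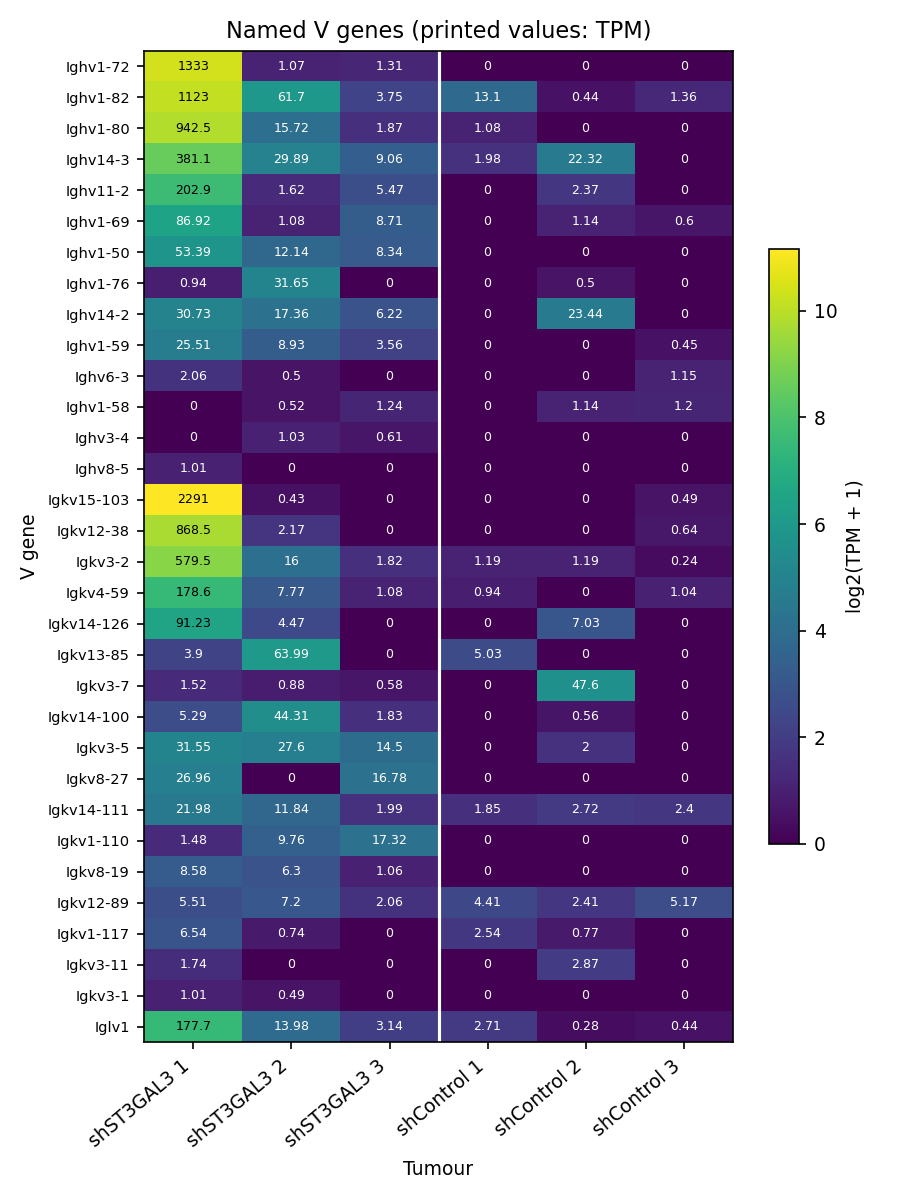
Level of 32 named member V genes in each tumour, as colour on the log2(TPM + 1) scale with the TPM printed in each cell. Genes are ordered within each locus by their highest value. The brightest cells, such as Igkv15-103 at 2290.51 TPM, lie in shST3GAL3 1, while Igkv12-89 and Igkv14-111 alone reach 1 TPM in all 6 tumours.

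V gene families are groups of genes of related sequence. The Ighv1 family, with 92 genes in the files and 32 members, held 82.0%, 73.6% and 59.6% of the Ighv TPM in shST3GAL3 1, 2 and 3, against 85.5%, 11.0% and 78.5% in shControl 1, 2 and 3. It led in 5 of the 6 tumours, and shControl 2 stood apart, where the small Ighv14 family held 81.6%. Ighv14 held 10.4%, 23.6% and 27.9% in shST3GAL3 tumours and 11.6% and 0% in shControl 1 and 3. In the kappa locus the leading family was Igkv15 in shST3GAL3 1 (42.5%), Igkv13 in shST3GAL3 2 (18.8%), Igkv3 in shST3GAL3 3 (25.3%), Igkv13 in shControl 1 (23.4%), Igkv3 in shControl 2 (72.2%) and Igkv12 in shControl 3 (49.5%). Members came from 12 of 16 Ighv families and 19 of 20 Igkv families.

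**Figure D4:**
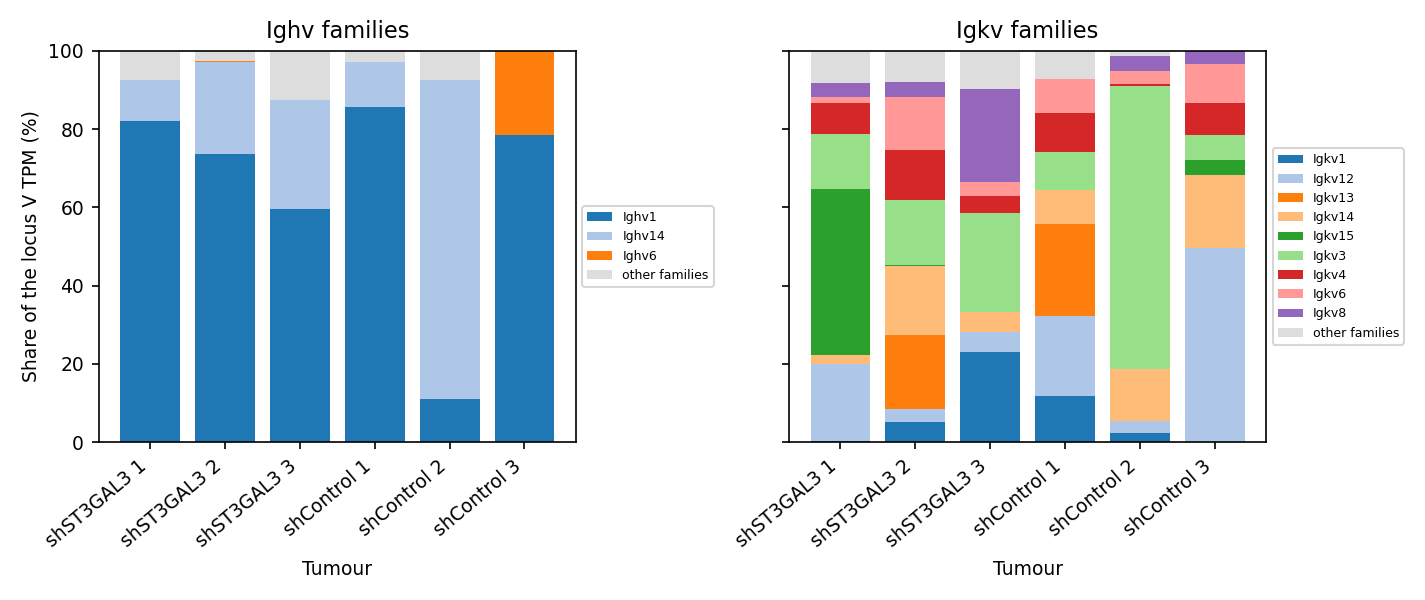
Share of the Ighv (left) and Igkv (right) TPM of each tumour by V gene family, in percent. Families that reach 10% in at least 1 tumour are drawn by name and the rest in grey. Ighv1 is the largest block in every tumour other than shControl 2, where Ighv14 holds 81.6%.

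Ighv genes far from the J segments carried most of the heavy chain signal in every tumour other than shControl 2. When the 113 functional Ighv genes were put in 3 equal blocks by their order on the chromosome, the block farthest from the J segments held 81.1%, 72.0% and 60.9% of the Ighv TPM in shST3GAL3 1, 2 and 3, against 83.4%, 11.0% and 78.5% in shControl 1, 2 and 3. The block nearest to the J segments held 17.7%, 25.9% and 38.5% in shST3GAL3 tumours and 14.5%, 89.0% and 0% in shControl tumours. The middle block held 1.1%, 1.8% and 0.7% in shST3GAL3 tumours and 2.1%, 0% and 21.5% in shControl tumours. It still had 15 members of 38 genes, against 23 of 37 in the far block and 21 of 38 in the near block. The leading genes Ighv1-72, Ighv1-80 and Ighv1-82 lie in the far block and Ighv14-2 and Ighv14-3 in the near block.

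Most V genes were in use in 1 tumour alone. Of the 129 members, 69 were in use in 1 tumour, 35 in 2, 11 in 3, 9 in 4, 3 in 5 and 2 in all 6. Of the 69 genes in use in 1 tumour, 54 were those of shST3GAL3 1, 9 of shST3GAL3 2, 2 of shST3GAL3 3, 1 of shControl 1 and 3 of shControl 2. They held 29.7%, 13.1% and 3.9% of the V TPM in shST3GAL3 1, 2 and 3, against 5.8%, 4.7% and 5.0% in shControl 1, 2 and 3. The 14 genes in use in 4 or more tumours held 37.7%, 41.6% and 44.9% in shST3GAL3 tumours and 68.4%, 44.5% and 69.3% in shControl tumours. Besides the genes named already, they include Igkv3-2, in use in 5 tumours, and Iglv1, Ighv1-69, Ighv11-2, Igkv3-5, Igkv3-12, Igkv4-59 and Igkv6-23, each in use in 4.

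The genes in use in the shControl tumours were mostly found in the shST3GAL3 tumours too. The shST3GAL3 tumours together used 125 V genes and the shControl tumours 31, and 27 were in use in both groups. These were 21.6% of the shST3GAL3 genes and 87.1% of the shControl genes. The 125 genes were nearly all of the 129 members, out of 346 V genes in the files. The 87.1% therefore does not show that the groups used alike genes. The 4 genes of the shControl tumours alone were Igkv1-88, Igkv3-4, Igkv6-32 and Igkv9-120, none above 1.90 TPM. Of the genes in use in shControl 1, 2 and 3, 90.9%, 76.2% and 85.7% were also in use in shST3GAL3 1. That tumour used 111 genes, which were 86.0% of the 129 members but a much smaller part of all 346 V genes. The 86.0% is no independent background, since 54 members entered the set through shST3GAL3 1 alone. Of the 30 genes of shST3GAL3 3, 25 were shared with shST3GAL3 1, which used 111, and 22 with shST3GAL3 2, which used 55. With shControl 1, 2 and 3, which used 11, 21 and 7 genes, shST3GAL3 3 shared 7, 11 and 6. Longer lists can share more genes, so these counts alone cannot rank the tumours. Of the genes in use in either tumour of a pair, 21.6% and 34.9% were shared with shST3GAL3 1 and 2. For shControl 1, 2 and 3 this share was 20.6%, 27.5% and 19.4%, so shControl 2 stood above shST3GAL3 1. Among the shControl tumours, shControl 1 and 2 shared 4 genes, and shControl 3 shared 3 with each of them. All 3 shST3GAL3 tumours shared 21 genes and all 3 shControl tumours 2. The shortest list held 30 genes in the first group and 7 in the second, so these 2 counts cannot be compared directly. Without shControl 2, 14 genes were in use in both groups. A shared V gene does not show a shared clone.

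**Figure D5:**
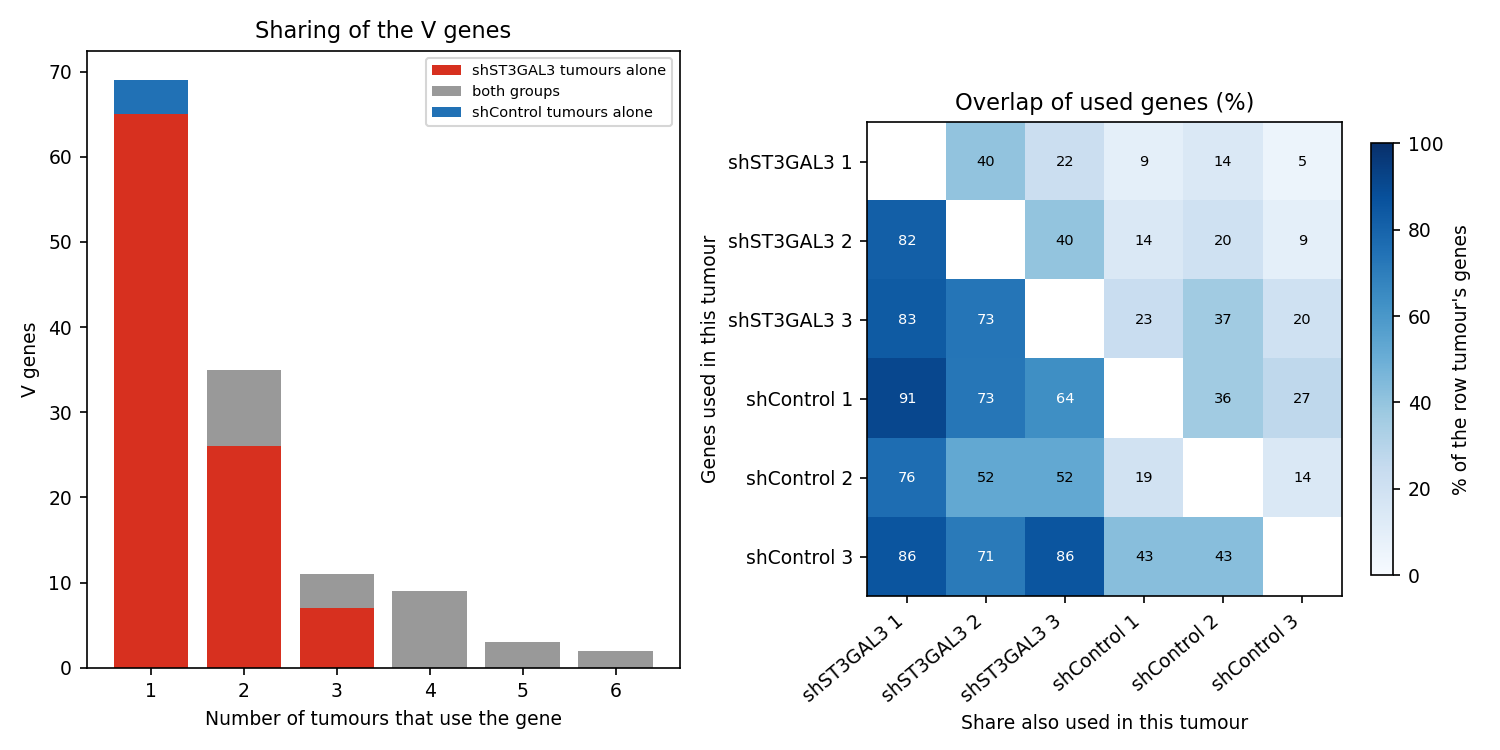
Left, number of V genes in use in 1 to 6 tumours, coloured by the groups in which they are in use. Right, percent of the genes in use in the tumour of each row that are also in use in the tumour of each column. Of the members, 69 are in use in 1 tumour and 2 in all 6, and most genes of each shControl tumour are also in use in shST3GAL3 1, which uses 86.0% of all members.

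The 2 genes in use in all 6 tumours ranged less than the kappa constant gene, Igkv12-89 by 3.50-fold and Igkv14-111 by 11.9-fold. Igkv12-89 stood at 5.51, 7.20 and 2.06 TPM in shST3GAL3 1, 2 and 3 and at 4.41, 2.41 and 5.17 TPM in shControl 1, 2 and 3. Igkc ranged over 1700-fold and the summed Igkv genes over 415-fold. Igkv14-111 stood at 21.98, 11.84 and 1.99 TPM in shST3GAL3 tumours and at 1.85, 2.72 and 2.40 TPM in shControl tumours, so that it was high in shST3GAL3 1 and 2 and alike in the other 4. Together these 2 genes made up 0.5%, 5.6% and 5.3% of the Igkv TPM in shST3GAL3 1, 2 and 3, against 28.4%, 6.6% and 58.3% in shControl 1, 2 and 3. Without them the ratio of summed Igkv to Igkc in shControl 3 was 2.44 in place of 5.85. In shControl 3 they were also the 2 V genes with the highest level, while Igkc was lower there than in any other tumour. The source of their signal was not tested.

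No V gene passed the test between the groups. Of the 129 members 25 reached 1 TPM in 3 or more libraries and were tested in the fit over 14207 genes (limma on log2(TPM + 1), Benjamini-Hochberg adjustment over all genes). At an adjusted p under 0.05 there were 0 V genes in either direction, and over all genes 0.00704% passed, a single gene that was lower. That gene was not St3gal3, which did not pass (limma adjusted p = 0.348). At an unadjusted p under 0.05 there were 12 V genes, all higher in shST3GAL3 tumours, against 9.19% of all genes higher at that level. Of the 25, 24 were higher in the mean of shST3GAL3 tumours, and the median log2 fold change was 3.11, against 0.013 over all genes. For 14 of the 25 each shST3GAL3 tumour exceeded each shControl tumour, against 15.7% of all genes, and for 0 it fell short, against 7.76%. These counts are a description, since V genes that were high in shST3GAL3 tumours were the ones that passed the filter. Of the 25, 21 reached 1 TPM in all 3 shST3GAL3 tumours, which is enough to pass. Among these, 7 reached it in no shControl tumour and so passed through the shST3GAL3 tumours alone.

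The 5 V genes with the smallest p reached 1 TPM in all 3 shST3GAL3 tumours and were not the most abundant ones. Igkv3-5 stood at 31.55, 27.60 and 14.50 TPM in shST3GAL3 1, 2 and 3 and at 0, 2.00 and 0 TPM in shControl 1, 2 and 3 (log2 fold change 4.08, SE 0.49, limma adjusted p = 0.259). Ighv1-50 stood at 53.39, 12.14 and 8.34 TPM in shST3GAL3 tumours and was listed at 0 in all shControl tumours (limma adjusted p = 0.38). Ighv1-59 stood at 25.51, 8.93 and 3.56 TPM in shST3GAL3 and 0, 0 and 0.45 TPM in shControl tumours (log2 fold change 3.23, SE 0.60, limma adjusted p = 0.38). Igkv1-110, given above, and Igkv8-19, at 8.58, 6.30 and 1.06 TPM, were also listed at 0 in all shControl tumours (limma adjusted p = 0.38 for each). None of these 5 showed overlap between the groups. Ighv1-50, Ighv1-59, Igkv1-110 and Igkv8-19 are among the 7 genes that entered the test through their level in the shST3GAL3 tumours alone. Igkv3-5 also met the filter by its level in the 3 shST3GAL3 tumours. The p-values of these 5 genes therefore support no difference. With that filter kept on all 6 libraries, the limma adjusted p without shST3GAL3 1 was 0.0169 for Ighv1-50 and 0.0225 for Igkv1-110, and without shST3GAL3 3 it was 0.0472 for Igkv8-19. Over 10 alternatives the adjusted p ranged from 0.0831 to 0.662 for Igkv3-5, from 0.0169 to 0.662 for Ighv1-50, from 0.133 to 0.662 for Ighv1-59, from 0.0225 to 0.662 for Igkv1-110 and from 0.0472 to 0.662 for Igkv8-19. Ighv1-58 was the 1 tested V gene with a lower mean, at 0, 0.52 and 1.24 TPM in shST3GAL3 and 0, 1.14 and 1.20 TPM in shControl tumours (log2 fold change -0.16, SE 0.43, limma adjusted p = 0.878). Its sign turned without shST3GAL3 1, shControl 2 or shControl 3, so no direction can be given.

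The leading genes of single tumours had large fold changes with large errors. Ighv1-72 had a log2 fold change of 4.21 with an SE of 2.39 (limma adjusted p = 0.449), and Igkv13-85 of 1.91 with an SE of 1.52 (limma adjusted p = 0.569). Igkv15-103, the most abundant of all, Igkv12-38 and Igkv3-7 reached 1 TPM in fewer than 3 libraries and were not tested. Igkv12-89, in use in all 6 tumours, averaged 4.92 ± 2.62 TPM in shST3GAL3 and 3.997 ± 1.426 TPM in shControl tumours (SD, n = 3 each), with a log2 fold change of 0.17 (SE 0.41, limma adjusted p = 0.854). Its sign turned without shST3GAL3 2 or shControl 2.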

How the data were processed

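RNA sequencing values of 6 tumours, 3 shST3GAL3 and 3 shControl by their titles, were used. The deposited values are TPM per gene with 2 decimals, 1 file per library. Each library summed to between 999999 and 1000001. The unit was taken from these values. The tools listed in the submitters' processing notes are fastp, HISAT and RSEM, with GRCm39 as build, and their roles and versions are not given there. Parameters, annotation and strandedness are not stated either. TPM is relative to the library total, keeps no read number and allows no counting interval, so precision rests on the replicates. Reads of rearranged and mutated antibody genes may map poorly to germline V genes.

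Members were the Ighv, Igkv and Iglv genes with a TPM of 1 or more in at least 1 library. All 346 V genes were matched by gene ID to GENCODE M21 (GRCm38) for biotype, order and sequence. The highest values of a tumour, the genes used in all tumours, those with the smallest p and those at the threshold were named by rule, and other genes were added with their values known. The members and lists were chosen with earlier results of these data known, and the epithelial list was added after seeing the data. 1 item is withheld and not reported here. Genes with a TPM of 1 or more in 3 or more libraries were tested with limma 3.58.1 (R 4.3.3) on log2(TPM + 1), using the intensity trend of the variance and the group as the sole term. P-values were adjusted by Benjamini-Hochberg over all 14207 genes. Fold changes on this scale understate the change of low genes, and errors of fold changes are moderated SE. The fit was tested on simulated data. Identity between V exons was 1 minus the edit distance over the longer exon (edlib 1.3.9.post1). Alternatives were another pseudocount, other filters and thresholds, the replicate number as a block, rescaling without immunoglobulin genes and leaving out each library.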

Additional observations from a re-analysis of the deposited data

How the results depend on the processing

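The count of V genes called was 0 in every fit with all 6 libraries, and 0 to 2 when 1 library was left out, with 2 without shST3GAL3 1 and 1 without shST3GAL3 3. These 3 genes had entered the test through the shST3GAL3 tumours alone. Over all genes, 0 higher and 1 lower gene passed. With a pseudocount of 0.1 there was 1 higher gene, and leaving out 1 library gave 0 to 2 higher and 1 to 2 lower genes. The deviations of same-numbered tumours correlated at 0.01, -0.08 and 0.04, within the range of all pairs across the groups (-0.12 to 0.13). With 3 tumours per group these values cannot show whether the replicate numbers mark pairs or a shared batch. With the replicate number as a block, 0 higher and 1 lower gene and 0 V genes passed. Of the values of the named genes under alternatives, 213 kept their direction and side of the threshold and 3 newly fell under the threshold. Those that turned sign were Ighv1-58 without shST3GAL3 1 (0.14), shControl 2 (0.02) or shControl 3 (0.04), and Igkv12-89 without shST3GAL3 2 (-0.12) or shControl 2 (-0.08). Their log2 fold changes with 1 library left out ran from -0.53 to 0.14 for Ighv1-58 and from -0.12 to 0.59 for Igkv12-89. The cause of these changes was not tested.

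The mean number of genes in use was 65.3 in shST3GAL3 tumours (42.5 to 83.0 with 1 tumour left out, the lowest without shST3GAL3 1) and 13.0 in shControl tumours (9.0 to 16.0). In shControl tumours it was 2.3 at a threshold of 5 TPM, 24.7 at any value above 0 and 20.7 at 1% of the locus. At 5 TPM it was 33.7 and at 1% of the locus 32.3 in shST3GAL3 tumours. The 27 genes in use in both groups became 6 at 5 TPM and 50 at any value above 0, and 14 to 27 with 1 tumour left out. The difference in log2 summed V level, 4.30, ranged from 2.57 without shST3GAL3 1 to 5.67 without shST3GAL3 3.

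The top 5 Ighv genes held a mean of 71.7% in shST3GAL3 and 94.0% in shControl tumours, with ranges of 65.7% to 76.8% and 91.0% to 95.8% when 1 tumour was left out. By other measures the pairs of means were 99.4% and 100% for the top 5 families, 23.4% and 48.1% for the top gene, and 7.8 and 3.3 for the effective number of genes. The top 5 Igkv genes held 67.4% in shST3GAL3 and 78.1% in shControl tumours, with ranges of 62.3% to 75.9% and 76.9% to 80.6%. Here the pairs were 84.3% and 87.9% for families, 28.1% and 41.7% for the top gene, and 8.1 and 4.8 for the effective number.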

Other observations

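Ighv11-2 and Igkv14-126, looked at after their values were seen, are known as the heavy and light chain V genes of a recurrent antibody of mouse B-1 cells against phosphatidylcholine. Ighv11-2 stood at 202.91, 1.62 and 5.47 TPM in shST3GAL3 1, 2 and 3 and at 0, 2.37 and 0 TPM in shControl 1, 2 and 3. Igkv14-126 stood at 91.23, 4.47 and 0 TPM in shST3GAL3 tumours and at 0, 7.03 and 0 TPM in shControl tumours. Both were highest in shST3GAL3 1 and had a value in shControl 2, and Igkv14-126 was listed at 0 in shST3GAL3 3. Bulk values do not show whether the same cells made both chains. Ighv12-3, the heavy chain gene of another such antibody, stood at 1.59 TPM in shST3GAL3 1 and was listed at 0 in the other 5 tumours.

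Lambda V genes were a small part of the light chain signal. Iglv1 stood at 177.72, 13.98 and 3.14 TPM in shST3GAL3 1, 2 and 3 and at 2.71, 0.28 and 0.44 TPM in shControl 1, 2 and 3. Iglv2 and Iglv3 were in use in shST3GAL3 1 and 2 alone, at 3.81 and 1.08 TPM for Iglv2 and 5.10 and 2.08 TPM for Iglv3. Lambda genes made up 3.35%, 4.78% and 3.98% of the light chain V TPM in shST3GAL3 tumours and 10.9%, 0.36% and 3.28% in shControl tumours, with overlap between the groups.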
